A study of Mus musculus with 7 samples.

Results

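Proliferating macrophages of the infarcted mouse heart were described here from a pool of CD11b+ cells, a surface protein of myeloid cells, taken 1, 3 and 5 days after the left coronary artery was tied off for good. They were the cells with at least 3 unique molecular identifiers (UMIs, counted transcripts) of Mki67 and Top2a together, among cells whose antibody count for Ly6G, a neutrophil surface protein, was under 200 UMIs. This gave 407 of 2866 Ly6G-low cells, and of 4416 cells used in the pool. Of the 407, 3 came from day 1, 177 from day 3 and 227 from day 5. The comparison cells were the 1965 Ly6G-low cells with 0 UMIs of both genes (241, 833 and 891 cells), and 494 cells with 1 or 2 UMIs were in neither class.

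The mice were male C57BL6/J, with 5 mice on day 1, 5 on day 3 and 3 on day 5, and no uninfarcted mice in the pool. Mice of a day were pooled, and every group had received a CD45.2 antibody intravenously, so that the sorted viable cells were CD11b+ and not labelled from the blood. Each day carried its own hashtag antibody, CD11b colour and sort, so day, hashtag and sort cannot be told apart, and no day had a replicate. Cells with fewer than 200 genes or over 10% mitochondrial UMIs were left out, as were cells whose leading hashtag had under 10 UMIs or under 3 times the next one. The proliferating cells held 97938 UMIs on day 1, 8942795 on day 3 and 10757034 on day 5.

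Mki67 encodes a protein that coats mitotic chromosomes and Top2a encodes the topoisomerase that untangles DNA strands, and both are transcribed mainly from DNA replication to mitosis. Replication genes such as the MCM helicase peak in S phase under E2F factors, and spindle and kinetochore genes peak later, under MuvB complexes. After infarction, circulating monocytes enter the heart and become macrophages. Local division is a known second source of cardiac macrophages.

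The label was checked against marker genes. All 14 macrophage markers had UMIs in the proliferating cells. Lyz2 was found in 100% of them against 97.1% of other cells, and Cd68 in 99.8% against 89.1%. Csf1r was found in 98.8% against 85.6% and C1qb in 98.5% against 79.4%. Lowest were Mertk, in 69.3% against 40.2%, and Cx3cr1, in 70.0% against 45.9%. Such percentages also depend on depth, which was higher in the proliferating cells. Per cell, the macrophage markers had a median of 252 UMIs per 10000 on day 3 and 399.8 on day 5, against 232 and 399.5 in the other cells. Summed over cells they were lower in the proliferating cells, at 35702 against 37720 CPM. Ly6g, the neutrophil gene, had 1 UMI in all 407 cells. The summed levels of the other lists, proliferating against other, were 212 against 1406 CPM for 11 neutrophil markers and 158 against 877 for 10 neutrophil precursor markers, with Elane, Camp and Ms4a3 at 0. For 6 erythroid markers the proliferating cells were higher, at 44.0 against 17.4 CPM, and Hba-a1 had UMIs in 9 of the 407 cells. The levels were 68.2 against 97.9 CPM for 12 dendritic cell markers, 2.27 against 2.90 for 8 T cell markers and 4.50 against 23.4 for 7 NK cell markers. Per cell, the median was 0.230 UMIs per 10000 against 0.156 for dendritic cell markers and 1.43 against 2.25 for neutrophil markers. Summed levels were 18.7 against 31.4 CPM for 6 B cell markers and 3.28 against 6.08 CPM for 7 fibroblast markers. They were 3.89 against 5.98 CPM for 6 cardiomyocyte markers and 0.859 against 1.71 CPM for 6 mast cell and basophil markers. Cd3g, Trbc2, Ncr1, Gzmb, Prf1 and Pax5, which mark lymphocytes, were at 0 in the proliferating cells, but other members of these lists were not. Ighm had UMIs in 20.4% of proliferating against 20.1% of other cells and Cd79b in 18.4% against 10.5%. Cd4 had UMIs in 4.91% against 1.63% and Klrd1 in 3.44% against 2.90%. The 6 endothelial markers summed to 146 against 140.2 CPM, of which Fabp4, a gene that macrophages express too, made up 137.2 in the proliferating cells. A messenger RNA gate of at least 3 UMIs of Cd68, Csf1r, Adgre1 and Fcgr1 and at most 1 lymphocyte UMI was passed by 95.5% of proliferating cells on day 3 and 91.2% on day 5, against 79.2% and 88.9% of the others. The data went with the label of macrophages.

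The rule also picked cells with more RNA. The median was 49633 UMIs per proliferating cell against 20209 per other cell on day 3, and 44464 against 21377 on day 5. Comparisons are therefore also given for cells of both classes between the 10th and 90th percentile of the proliferating cells' UMIs of the same day, called the same UMI range (141 against 269 cells on day 3 and 181 against 403 on day 5), where the medians were 49633 against 37849 and 44464 against 32655. A depth gap remained in that range. The 360 barcodes with a second hashtag too close to the first were left out. From their number, 249 doublets of 1 hashtag (5.63% of called barcodes) were expected to remain, and Scrublet marked 0 of 4835 barcodes and so removed none. The pool shared 0 barcodes with the CD45+ libraries and 28 with the blood and heart pool of the same study.

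How common the cells were on each day was asked first. They made up 1.08% of Ly6G-low cells on day 1 (3 of 277, exact 95% interval 0.224 to 3.13), 14.7% on day 3 (177 of 1207, 12.7 to 16.8) and 16.4% on day 5 (227 of 1382, 14.5 to 18.5). The intervals cover counting error only. Cells with Ly6G antibody of 200 or more, called Ly6G-high, were set beside them. Of these, 28.9%, 34.5% and 48.1% passed the messenger RNA macrophage gate on days 1, 3 and 5, so they were not taken as neutrophils alone. The Ly6G-high shares were 1.56% (4 of 256 cells), 2.59% (26 of 1003) and 6.87% (20 of 291). Median depths were 4647, 4139 and 4913 UMIs, against 19322, 24769 and 27034 in Ly6G-low cells. The day 1 share was not above the Ly6G-high share. On days 3 and 5 the Ly6G-low shares lay above the Ly6G-high shares, with intervals that did not overlap.

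Depth was then set equal by thinning each cell to 10000 UMIs and leaving out shallower cells (70, 265 and 174 Ly6G-low cells and 231, 847 and 187 Ly6G-high cells). The Ly6G-low shares became 0.483%, 10.3% and 9.69%, and the Ly6G-high shares 4.00%, 5.13% and 8.65%, the first from 1 of 25 cells. The intervals of days 3 and 5 overlapped. At this depth the Ly6G-low and Ly6G-high shares of day 5 overlapped in their intervals (8.08 to 11.5 against 4.03 to 15.8). On day 3 they overlapped as well (8.43 to 12.4 against 2.24 to 9.85). Cells thinned to 5000 UMIs with at least 1 UMI of either gene, a setting that keeps more Ly6G-high cells, made up 2.20%, 16.5% and 17.4% of Ly6G-low cells and 7.55%, 8.14% and 13.3% of Ly6G-high cells. There the intervals of day 3 did not overlap (14.2 to 18.9 against 5.34 to 11.8), and those of day 5 did (15.3 to 19.6 against 8.19 to 20.0). Ly6G-high cells with at least 3 UMIs numbered 26 on day 3 and 20 on day 5, and 18 and 17 of them passed the messenger RNA macrophage gate. Their median CD64 antibody count was 52.5 and 110.5 UMIs, against 15 and 21 in Ly6G-high cells with 0 UMIs. Their median Ly6G antibody count was 248 and 254.5, against 336.5 and 328.5. Their median depth was 46100 and 47819.5 UMIs, against 4047 and 4511. On days 3 and 5 most of these cells passed the gate, so the Ly6G-high share was not a background from neutrophils alone. How much of it came from free RNA and how much from macrophages was not tested.

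**Figure D1:**
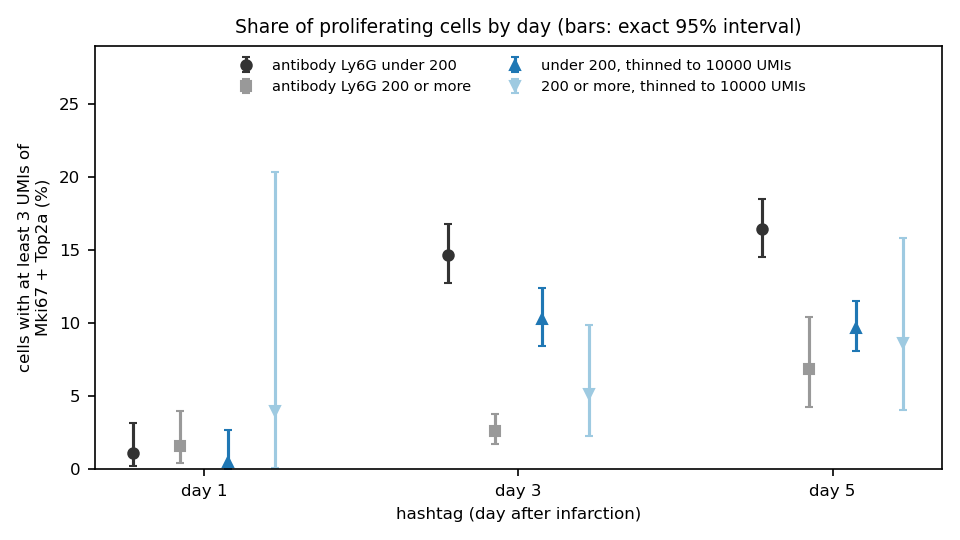
Share of cells with at least 3 UMIs of Mki67 and Top2a (y axis, percent) by hashtag day (x axis), in cells of Ly6G antibody under 200 and of 200 or more, as deposited and with each cell thinned to 10000 UMIs; bars are exact 95% intervals of the counting error. The Ly6G-low share was 1.08% on day 1 and 14.7% and 16.4% on days 3 and 5.

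The 3 cells of day 1 held 22672, 28013 and 47253 UMIs. Of these only the cell with 28013 UMIs had many UMIs of the choosing genes, 13 of Mki67 and 6 of Top2a, and replication genes at 34.6 per 10000 UMIs. The other two had 3 and 4 UMIs of the choosing genes, and replication genes at 3.09 and 4.87 per 10000. Their mitosis genes were at 8.38 and 0.635 per 10000, against 11.1 in the cell with 28013. Day 1 had too few cells for a sum and entered none of the comparisons below.

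The values that chose the cells were as follows, as a description. On day 3, 36 cells had 3 or 4 UMIs of Mki67 and Top2a, 44 had 5 to 9, 37 had 10 to 29 and 60 had 30 or more. On day 5 these were 74, 42, 43 and 68 cells. Just inside the threshold, 75 cells with 3 UMIs had a median of 2.95 UMIs of the 40 mitosis genes per 10000 UMIs, and just outside it 141 cells with 2 UMIs had 2.14. Cells with 0 had 1.83, and all 407 cells had 20.7. Summed over cells, Mki67 was at 274.5 CPM (a gene's UMIs per 1000000 UMIs of the sum) on day 3 and 279.7 on day 5, and Top2a at 279 and 248.

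Within the proliferating cells the chromatin and tubulin genes lay higher in each stratum of more choosing UMIs. Cycle genes accompany the choosing genes, so this order came with the choice and is a description. Median depth differed between strata as well, at 41976.5 UMIs with 3 or 4 and 62680 with 30 or more on day 3. On day 3 the chromatin and tubulin genes had a median of 68.0 UMIs per 10000 in cells with 3 or 4 UMIs, 96.4 with 5 to 9, 122 with 10 to 29 and 164 with 30 or more, against 40.7 in cells with 0. On day 5 the medians were 41.9, 82.1, 108.6 and 160.2, against 41.4 in cells with 0. The 74 cells with 3 or 4 UMIs on day 5, 32.6% of that day's proliferating cells, had a median close to that of the other cells for this list. They had medians of 3.62 for the 34 replication genes and 2.68 for the mitosis genes, against 3.37 and 1.76 in cells with 0 UMIs. Their median depth was 41018.5 UMIs, against 21377 in cells with 0. Replication genes did not follow the strata in order on day 3, with medians of 6.13, 17.1, 11.7 and 31.9, and macrophage markers had 266, 276, 243 and 241. With at least 5 UMIs the shares of day 3 and day 5 were 11.7% and 11.1%.

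**Figure D2:**
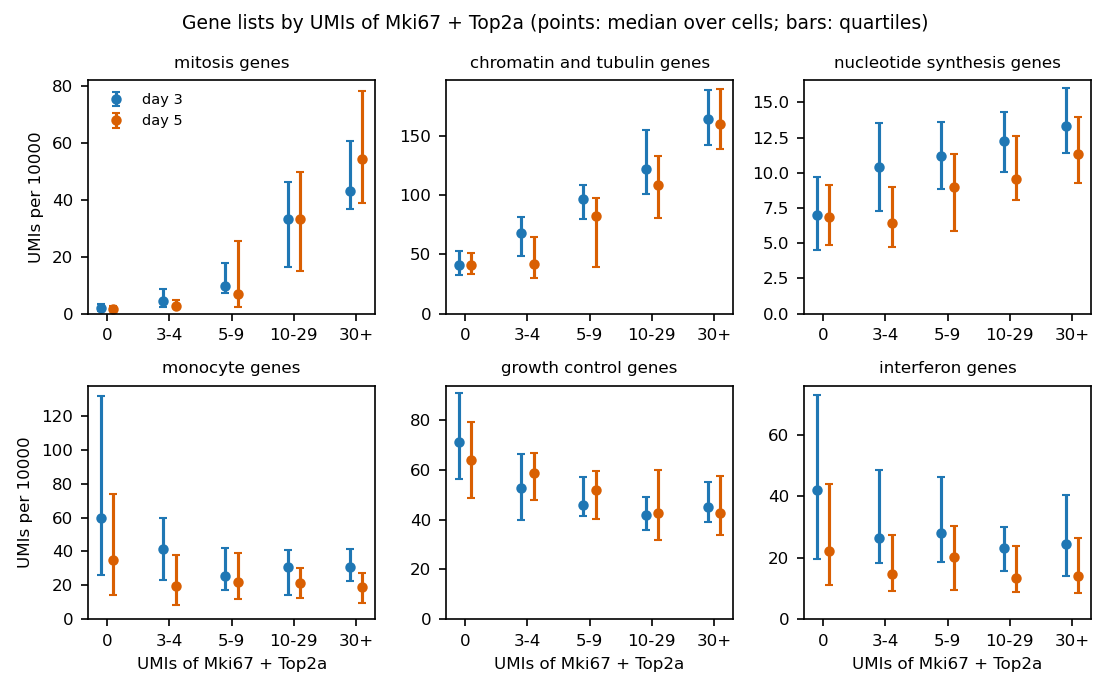
Median UMIs of 6 gene lists per 10000 UMIs of a cell (y axes), with quartiles as bars, in Ly6G-low cells grouped by their UMIs of Mki67 and Top2a (x axes) on day 3 and day 5. Chromatin and tubulin genes went from 41.9 at 3 to 4 UMIs to 160.2 at 30 or more on day 5, while monocyte, growth control and interferon genes lay lower in the strata above 0 than at 0.

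Cells at different points of the cycle could be seen by setting the 34 replication genes against the 40 mitosis genes in each cell. Many proliferating cells had high replication genes and few mitosis UMIs, others had both, and others had high mitosis genes and low replication genes, so that the points traced an arc. The quartiles of the replication genes were 6.48, 14.1 and 36.9 UMIs per 10000 on day 3 and 3.79, 8.20 and 29.8 on day 5. Those of the mitosis genes were 8.26, 24.8 and 43.3 on day 3 and 3.20, 17.7 and 46.7 on day 5. Mitosis UMIs outnumbered replication UMIs in 53.7% of proliferating cells on day 3 (95 of 177, exact 95% interval 46.0 to 61.2) and 51.5% on day 5 (117 of 227, 44.8 to 58.2). At least 3 UMIs of the late genes Ccnb1, Cdc20, Plk1 and Cenpe, which drive entry into and exit from mitosis, were found in 63.3% (112 of 177, 55.7 to 70.4) and 49.8% (113 of 227, 43.1 to 56.5). In the other cells this share was 0.120% on day 3 and 0.112% on day 5, at lower depth. The other cells were chosen for 0 UMIs of Mki67 and Top2a, so this contrast came with the choice. Mitosis UMIs outnumbered replication UMIs in 25.7% of the other cells on day 3 and 19.3% on day 5. None of the 4 genes had a UMI in 40 and 74 of the proliferating cells.

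**Figure D3:**
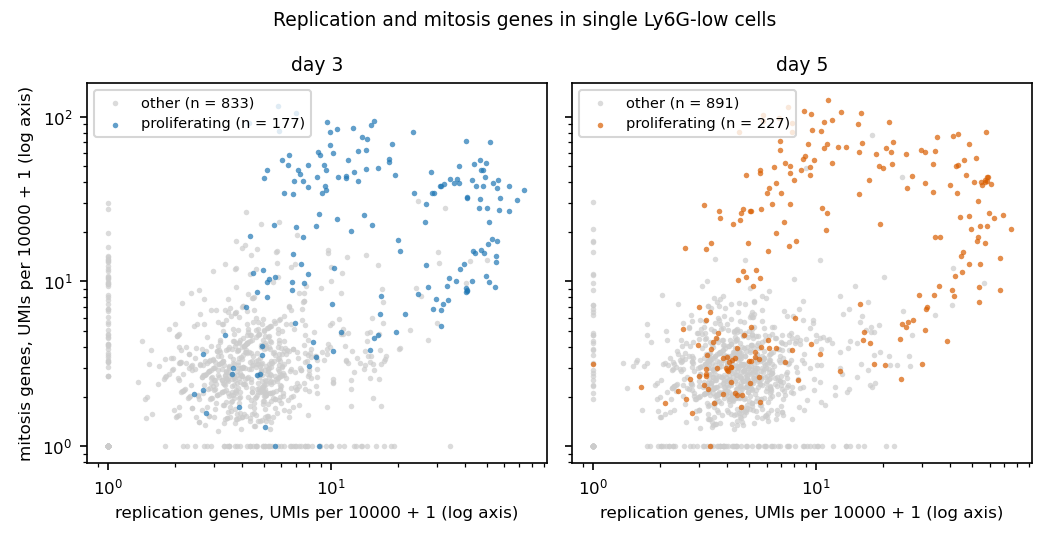
Each point is a Ly6G-low cell of day 3 (left) or day 5 (right), placed by its UMIs of 34 replication genes (x axis) and 40 mitosis genes (y axis) per 10000 UMIs plus 1, both on log axes; coloured points are proliferating cells and grey points the cells with 0 UMIs of Mki67 and Top2a. The coloured points trace an arc, and on day 5 more of them lie inside the grey cloud.

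Gene expression was compared between the classes with UMIs summed over cells, 1 sum per class and day, for days 3 and 5 (8934824 and 10747975 UMIs for the proliferating cells, 18101851 and 21111541 for the others). The fit was edgeR's quasi-likelihood test with the day as block, which leaves 1 residual degree of freedom beside the spread shared over genes, so the p-values rest on how alike the 2 days were and not on replicate mice. Of 11438 genes tested, 28.7% (3278) were called at an adjusted p under 0.05, with 14.6% higher and 14.1% lower in proliferating cells. With cells of the same UMI range 20.5% of 10929 genes were called (2243), 11.3% higher and 9.22% lower. Without the day as block 7.38% were called (844 genes), 5.65% higher and 1.73% lower, and then 3 of 13 monocyte, 6 of 19 nucleotide synthesis, 4 of 21 growth control, 1 of 17 interferon, 4 of 21 inflammatory and 1 of 8 MHC class II genes passed the test, in the directions given below. DESeq2 called 11.4% (1304 genes), 6.11% higher and 5.29% lower. Without TMM scaling 69.5% of calls were higher, against 50.8% with it, and the median of all genes moved from -0.01 to 0.11 log2. CPM below are given in the order proliferating, then other. Genes are protein coding, with coordinates of GENCODE M21 on GRCm38.

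The replication and mitosis genes came with the choice of the cells and are a description, with nothing read from their calls against the 14.6% called higher. All 34 replication genes were higher, with a median log2 of 2.44, and 39 of 40 mitosis genes, with a median of 5.27. Pcna, the sliding clamp of DNA polymerase, was at 208 CPM against 78.3 on day 3 and 190.2 against 72.2 on day 5. Mcm6 and Mcm3, helicase subunits, differed by 1.98 and 1.77 log2. Rrm1 and Rrm2, the subunits of ribonucleotide reductase, differed by 3.05 and 5.47, and Slbp, which binds histone messenger RNA, by 0.59. Atad2, a chromatin ATPase, differed by 2.21. Among the mitosis genes, Birc5 (survivin, of the chromosomal passenger complex; ENSMUSG00000017716, chr11:117849251-117855743, plus strand) was at 232 CPM against 4.25 on day 3 and 258 against 5.11 on day 5. Ube2c, which passes ubiquitin on behalf of the anaphase-promoting complex (ENSMUSG00000001403, chr2:164769898-164778822, plus strand), was at 244 CPM against 3.48 on day 3 and 211 against 6.81 on day 5. The condensin subunits Smc2 and Smc4 differed by 3.59 and 2.74 log2, Cks1b, a subunit that binds cyclin-dependent kinases, by 3.49, and Cenpa, the centromeric histone, by 1.87. The exception was Pttg1 (securin), named after its value was seen, at 32.1 CPM in proliferating and 30.5 in other cells (log2 -0.06, edgeR adjusted p 0.704). Of 24 chromatin and tubulin genes 23 were higher, with a median of 1.65. H2afz, a histone variant, was at 1794 CPM against 663 on day 3 and 1757 against 756 on day 5, and Tubb5 and Tuba1b, the building blocks of microtubules, differed by 1.81 and 1.82. Hmgb1, Ran and Ptma, abundant nuclear proteins, differed by 1.16, 1.00 and 0.75.

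Promoters are shown for the 3 mitosis genes with the highest CPM that had a window in the reference table, to place the genes that moved together beside the motifs known for late cycle genes. Each line runs 5′ to 3′ on the plus strand, from 250 bases before to 50 bases after the RefSeq start (GRCm38.p6). Capitals mark TTTGAA (the core of the CHR element) and CCAAT (the NF-Y box), searched on both strands, so TTCAAA and ATTGG count as well. Overlapping matches were counted separately. Birc5 lies at chr11:117848987-117849286, Ube2c at chr2:164769679-164769978 and Smc2 at chr4:52438971-52439270.
Birc5: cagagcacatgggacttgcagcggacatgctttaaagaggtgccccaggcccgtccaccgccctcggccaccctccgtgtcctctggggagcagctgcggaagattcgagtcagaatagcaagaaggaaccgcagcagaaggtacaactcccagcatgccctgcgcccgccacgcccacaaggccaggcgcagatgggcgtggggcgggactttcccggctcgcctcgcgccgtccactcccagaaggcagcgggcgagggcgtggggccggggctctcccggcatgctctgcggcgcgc
Ube2c: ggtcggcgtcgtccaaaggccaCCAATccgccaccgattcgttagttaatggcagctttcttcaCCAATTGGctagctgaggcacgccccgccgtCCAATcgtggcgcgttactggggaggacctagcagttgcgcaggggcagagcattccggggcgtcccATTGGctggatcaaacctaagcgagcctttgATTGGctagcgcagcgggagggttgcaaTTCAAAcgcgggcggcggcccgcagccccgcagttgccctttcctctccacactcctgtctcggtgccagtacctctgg
Smc2: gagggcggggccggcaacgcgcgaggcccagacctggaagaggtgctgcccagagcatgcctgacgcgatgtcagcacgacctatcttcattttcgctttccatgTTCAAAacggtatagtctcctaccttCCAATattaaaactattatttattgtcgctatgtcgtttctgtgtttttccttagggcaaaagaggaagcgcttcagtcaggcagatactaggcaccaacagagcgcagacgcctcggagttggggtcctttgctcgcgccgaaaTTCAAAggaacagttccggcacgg
The Birc5 window held 0 matches, the Ube2c window 1 TTTGAA and 6 CCAAT, and the Smc2 window 2 TTTGAA and 1 CCAAT. Over the list, 33 of 40 mitosis genes matched 35 windows, and 74.3% of these held TTTGAA, against 17.9% of all 32851 windows. Both motifs stood in 65.7% of mitosis windows, against 6.95% of all windows. Of 32 windows of 27 replication genes 9.38% held TTTGAA and 53.1% held CCAAT, the latter against 37.4% of all windows. A match is a description of the letters in these windows.

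Outside those lists, the 10 highest changes past the threshold were mostly genes of chromosomes and the spindle. Genes of cell division outside the lists come with the choice of the cells as well, so these values are a description. Pclaf, which binds the clamp Pcna (ENSMUSG00000040204, chr9:65890237-65903266, plus strand), was at 298 CPM against 4.08 on day 3 and 219.8 against 2.79 on day 5. Cdca3, Cdca8, Spc24 and Knstrn, proteins of cell division and of the kinetochore or spindle, differed by 5.05, 4.91, 4.35 and 4.23 log2, and Asf1b, a histone chaperone, by 4.02. Gmnn (geminin), which stops a second round of replication, differed by 2.27, Tmpo, a protein of the nuclear envelope, by 2.23, and Ccdc34 by 2.41. Ezh2, the methyltransferase of Polycomb complex 2 (ENSMUSG00000029687, chr6:47530139-47595341, minus strand), was at 94.2 CPM against 15.6 on day 3 and 72.6 against 12.5 on day 5, a log2 change of 2.44 (SE 0.10, edgeR adjusted p 6.68e-09). Each of these 10 genes was higher in the proliferating cells on both days, which was a condition for naming them.

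Cell cycle control genes moved in both directions, and since they accompany the choice of the cells their counts are a description. Of 31 tested, 17 were higher and 7 lower, against the 14.6% and 14.1% of all genes, with a median of 0.45 log2. The late E2F factors E2f7 and E2f8 differed by 4.80 and 3.41 log2, and Foxm1 and Mybl2, activators of mitosis genes, by 5.44 and 4.82. Cdk4 differed by 0.78 (SE 0.09, edgeR adjusted p 5.29e-05), at 159 CPM against 78.9 on day 3 and 128 against 73.0 on day 5, and its partner Ccnd1 by 0.56 (SE 0.11, edgeR adjusted p 0.00328). Ccnd2, another D cyclin, differed the other way, by -0.78 (SE 0.17, edgeR adjusted p 0.00569), and by -0.52 (adjusted p 0.171) in the same UMI range. Myc rose by 0.72 (SE 0.13, edgeR adjusted p 0.00201). The inhibitors did not move as 1 group. Cdkn2c and Cdkn2d, inhibitors of Cdk4 and Cdk6 that are made in cycling cells, were higher by 3.15 and 1.35. Cdkn1a (p21; ENSMUSG00000023067, chr17:29090976-29100727, plus strand) was lower, at 253 CPM against 462 on day 3 and 262 against 364 on day 5, a log2 change of -0.80 (SE 0.11, edgeR adjusted p 0.000302). The antiproliferative genes Btg1 and Btg2 fell by 0.83 and 1.04 log2, and the stress genes Gadd45a and Gadd45b by 0.82 and 0.75. Mdm2, a target of p53, fell by 0.47. Cdkn1b, Rb1 and Rbl2, which hold cells at rest, were at -0.22, -0.19 and 0.16, with adjusted p of 0.183, 0.163 and 0.453. Among cells of the same UMI range Cdkn1a, Btg1 and Btg2 fell by 0.55, 0.51 and 0.46 log2.

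Genes of nucleotide synthesis, which supply bases for DNA, were higher: 15 of 19 rose and 0 fell, with a median of 0.64 log2 against -0.01 over all genes. On day 3 the list followed the choosing UMIs, with medians of 10.4, 11.2, 12.3 and 13.3 UMIs per 10000 over the strata, against 7.00 at 0. On day 5 the 74 cells with 3 or 4 UMIs had 6.42, against 6.88 at 0. How far these genes came with the choice of the cells was not tested. Impdh2, of guanine nucleotide synthesis, was at 105 CPM against 51.6 on day 3 and 86.8 against 50.0 on day 5, a log2 change of 0.79 (SE 0.09, edgeR adjusted p 6.43e-05). Paics, of purine synthesis, was at 83.0 CPM against 37.4 on day 3 and 74.3 against 42.3 on day 5, with 0.85 (SE 0.10, edgeR adjusted p 5.56e-05). Shmt2 and Mthfd2, of mitochondrial one-carbon metabolism, rose by 1.28 and 0.94. Dctpp1, which degrades abnormal deoxycytidine triphosphate, rose by 1.08. Nme1, Nme2, Hprt and Dhodh did not pass the test, at -0.01, -0.07, 0.23 and 0.51. Among cells of the same UMI range 13 of 19 rose, beside 11.3% of all genes called higher there, with a median of 0.54. Beside the 14.6% of all genes called higher and 14.1% lower, 2 of 21 genes of oxidative phosphorylation rose and 1 fell, 0 of 18 glycolysis genes rose and 6 fell, and 5 of 16 chaperonin and proteasome genes rose. Gapdh, the glycolytic enzyme, was at 2365 CPM against 2102 on day 3 and 1945 against 1816 on day 5. Ppia, a protein folding enzyme, was at 2639 CPM against 1646 on day 3 and 2438 against 1787 on day 5, and the chaperonin Hspd1 rose by 0.56.

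Monocyte genes were lower. All 13 fell, with a median log2 of -2.41, against 14.1% of all genes called lower and a median of -0.01. Plac8, found in freshly arrived monocytes (ENSMUSG00000029322, chr5:100553725-100572245, minus strand), was at 58.8 CPM against 861 on day 3 and 16.4 against 161 on day 5, a log2 change of -3.75 (SE 0.15, edgeR adjusted p 5.76e-09). Ly6c2, the gene of the Ly6C surface protein, was at 16.5 CPM against 195 on day 3 and 4.65 against 50.4 on day 5, with -3.65 (SE 0.11, edgeR adjusted p 1.16e-09). The near-identical gene Ly6c1 could share its reads. Chil3, a chitinase-like protein of inflammatory monocytes (ENSMUSG00000040809, chr3:106147554-106167564, minus strand), was at 197 CPM against 1140.3 on day 3 and 85.8 against 348 on day 5, with -2.41 (SE 0.13, edgeR adjusted p 9.56e-08). Ccr2, the chemokine receptor by which monocytes enter tissue, fell by 1.15, Vcan (versican) by 2.77, Ifitm6 by 2.87, and Thbs1 (thrombospondin) by 1.68. The proliferating cells were lower on each of the 2 days for every one of the 13. All 13 fell too in the same UMI range, beside 9.22% of all genes, with a median of -1.55. With the messenger RNA gate added all 13 fell, beside 916 of all 10820 genes, with -1.69. Neutrophil genes moved in the same direction in these cells: 9 of 10 tested fell, beside 14.1% of all genes, with a median of -2.41. In the same UMI range this became 4 of 10, beside 9.22% of all genes, and -0.41. S100a8 was at 45.4 CPM against 812 on day 3 and 46.3 against 166 on day 5. Slpi, a secreted protease inhibitor of myeloid cells, fell by 2.69 and the acute phase gene Hp was at 21.1 CPM against 167 on day 3 and 13.6 against 42.1 on day 5. The part of neutrophil RNA in the monocyte result was not tested.

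Ccl24, a chemokine for eosinophils (ENSMUSG00000004814, chr5:135569937-135573049, minus strand), stood apart from the other lowest genes as one of the genes listed for resident macrophages. It was at 3.47 CPM against 77.9 on day 3 and 6.60 against 51.7 on day 5, a log2 change of -3.74 (SE 0.24, edgeR adjusted p 4.24e-07). With cells of the same UMI range it differed by -3.82. Of the 10 tested genes of that list 3 rose and 4 fell, Ccl24 among them, beside 14.6% and 14.1% of all genes. Mrc1, the mannose receptor, Igf1, a growth factor, and Gas6, a ligand for clearing dying cells, rose by 0.34, 0.44 and 0.33. Within the same UMI range these 3 genes did not pass the test, at 0.22, 0.06 and 0.13, with adjusted p of 0.0511, 0.748 and 0.286. Cd163, a haemoglobin scavenger receptor, fell by 1.45 and F13a1, a clotting factor subunit, by 0.41. Folr2 and Cbr2 were at 0.22 and 0.04 and did not pass the test. Timd4 was too low to be tested.

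Genes that restrain or guide macrophage growth and differentiation were lower or did not pass the test: 14 of 21 fell and 0 rose, with a median of -0.35, beside 14.1% of all genes called lower. Cebpb, a factor of myeloid differentiation, was at 1368 CPM against 2444 on day 3 and 1427 against 1918 on day 5, a log2 change of -0.76 (SE 0.11, edgeR adjusted p 0.000382). Klf2, Klf4 and Zeb2, other differentiation factors, fell by 0.54, 0.35 and 0.47. The growth factor receptors fell as well: Csf1r, the receptor for M-CSF, by 0.37, and Csf2ra and Csf2rb, the receptor for GM-CSF, by 0.75 and 0.98. Csf2rb and Csf2rb2 are near-copies whose reads may be split. In the same UMI range 11 of 21 fell, beside 9.22% of all genes, with a median of -0.30, among them Cebpb (-0.43).

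Interferon and inflammatory genes were lower. Of 17 interferon genes 14 fell and 0 rose, with a median of -0.81, beside 14.1% of all genes called lower. Ifitm3, an antiviral membrane protein (ENSMUSG00000025492, chr7:141009586-141010770, minus strand), was at 997 CPM against 2114 on day 3 and 522 against 1001 on day 5, with -1.14 (SE 0.09, edgeR adjusted p 2.8e-06). Irf7, a factor that amplifies interferon, fell by 1.34, Isg15 by 1.06 and Ifi27l2a by 0.85. Ifit1 was at -1.42 within day 3 and 0.51 within day 5 (adjusted p 0.369 in the fit), and the day difference was not tested. Cxcl10, an interferon-induced chemokine, was at 0.34 (adjusted p 0.119) and rose by 0.74 in the same UMI range, where 12 of 17 genes fell beside 9.22% of all genes. Of 21 inflammatory genes 17 fell and 0 rose, with a median of -0.60, beside the same 14.1%. Il1b, the cytokine interleukin 1 beta (ENSMUSG00000027398, chr2:129364570-129371139, minus strand), was at 851 CPM against 3363 on day 3 and 1146 against 2212 on day 5, with -1.59 (SE 0.19, edgeR adjusted p 9.54e-05). Cxcl2, a chemokine for neutrophils, was at 2958 CPM against 6365 on day 3 and 2838 against 4393 on day 5, with -0.99 (SE 0.12, edgeR adjusted p 7.32e-05). Il6 fell by 2.86, Ptgs2, which makes prostaglandins, by 1.15, and Arg1, an enzyme of reparative macrophages, by 0.60. Ccl2, Ccl7 and Ccl4 were at -0.19, -0.24 and 0.08 and did not pass the test. Of the 21 genes 12 fell in the same UMI range, beside the same 9.22%, with a median of -0.48, and Tnf, at -0.80 in all cells, was at -0.15 (adjusted p 0.331).

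**Figure D4:**
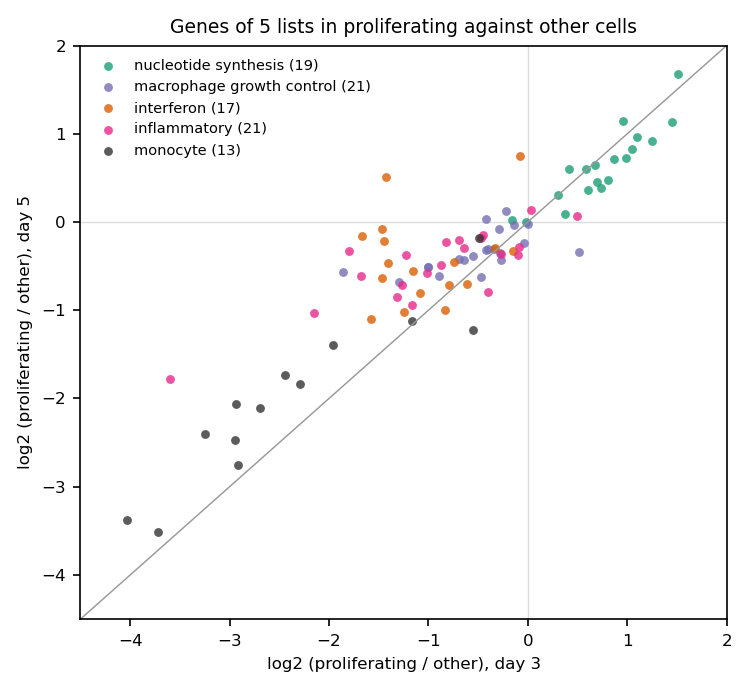
Log2 ratio of proliferating to other Ly6G-low cells within day 3 (x axis) and within day 5 (y axis) for the genes of 5 lists, 1 point per gene; the diagonal marks equal ratios. Monocyte genes all lie below 0 on both days and most nucleotide synthesis genes above 0, and most points of the interferon and inflammatory lists lie above the diagonal, further below 0 on day 3 than on day 5.

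Genes of lipid-handling phagocytes gave different pictures in sums and in single cells. In the sums 0 of 14 passed the test, with a median of -0.02 (0.10 with total counts alone), while 28.7% of all genes were called. Per cell, the list's median was 231 UMIs per 10000 in proliferating against 120.3 in other cells on day 3, and 301 against 196 on day 5. Spp1 (osteopontin) was at 10635 CPM against 8166 on day 3 and 8705 against 8618 on day 5, and Trem2, a lipid receptor, at -0.01 log2. Within the same UMI range 7 of 14 fell, beside 9.22% of all genes called lower there, with a median of -0.24. Among 14 macrophage markers 2 rose and 7 fell, beside 14.6% and 14.1% of all genes. With total counts alone 4 rose and 4 fell, beside 2618 and 1151 of all 11438 genes. C1qa and C1qc, complement subunits, rose by 0.35 and 0.34, and C1qb was at 0.24 (adjusted p 0.0955). Apoe, a lipid carrier (ENSMUSG00000002985, chr7:19696109-19699188, minus strand), was at 4859 CPM against 7412 on day 3 and 12729.5 against 17355 on day 5, with -0.65 (SE 0.09, edgeR adjusted p 0.000166). Fcgr1, the gene of CD64, fell by 0.64 and Cd14, the lipopolysaccharide receptor, by 0.75. Of 18 matrix and repair genes 1 rose and 10 fell, beside the same 14.6% and 14.1%. Fn1 (fibronectin) fell by 0.89, Tgfbi by 0.72 and Vegfa, a growth factor for vessels, by 1.42, while Timp2 rose by 0.31.

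Genes of MHC class II, which present antigen, were lower in the sums: 6 of 8 fell, with a median of -0.63, beside 14.1% of all genes called lower. DESeq2 called 3 of the 8, beside 5.29% of all genes called lower. Cd74, the invariant chain, was at 1637 CPM against 1922 on day 3 and 1261 against 2371 on day 5, with -0.70 (SE 0.12, edgeR adjusted p 0.0014). Levels varied widely among cells. The upper quartile of the list was 20.8 UMIs per 10000 in proliferating cells of day 3 and 5.48 on day 5, with highest values of 758 and 614, against upper quartiles of 9.58 and 20.1 in the other cells. Within the same UMI range 5 of 8 fell, beside 9.22% of all genes, and in the CD45+ libraries below 0 of 7 fell, beside 9.18%. Of 11 dendritic cell genes tested 5 fell, beside the same 14.1%, but 0 of 11 were called by DESeq2 or without the block. In the same UMI range 2 of 8 fell, beside the same 9.22%. Ccr7, which guides dendritic cells to lymph nodes, was found in 18 of the 407 cells.

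Surface proteins were read from 10 antibodies. With 2 days and no replicates no test was made. Median counts were higher in proliferating cells on both days for 9 of 10 antibodies, and the RNA UMIs of these cells were higher as well. Ly6G was among the 9, and the rule held its count under 200 in both classes. The median antibody total was higher too, at 809 against 655 UMIs on day 3 and 765 against 653 on day 5. CD64, an Fc receptor of macrophages, had medians of 73 against 33 UMIs on day 3 and 66 against 44 on day 5. I-A/I-E, the MHC class II protein, had 131 against 72 and 120 against 85. CD11c had 67 against 41 and 64 against 46, CX3CR1 74 against 51 and 88 against 60, F4/80 78 against 59 and 79 against 61, and MSR1 37 against 24 and 33 against 24. Ly6C was the exception, with 70 against 87 on day 3 and 71 against 69 on day 5. As a share of a cell's antibody UMIs, Ly6C had medians of 8.95% against 15.6% and 9.42% against 11.3%. TIM4, CCR2 and Ly6G differed by at most 1.09 times in median counts, and by share each was lower in proliferating cells on both days.

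Among cells of the same UMI range 5 of 10 antibodies were higher on both days. The ratio of medians became 1.11 and 1.10 for CD64, 1.13 and 1.14 for I-A/I-E and 1.22 and 1.18 for CD11c, and Ly6C stood at 0.824 and 1.03. Fcgr1 fell by 0.64 log2 per UMI while the CD64 antibody was 1.95 and 1.19 times the other cells' by share (1.16 and 0.981 in the same UMI range), and Cd74 and H2-Ab1 fell while I-A/I-E was at 1.39 and 1.19 times by share (1.13 and 1.10). Ccr2 transcripts fell by 1.15 log2, and the CCR2 antibody was at 0.888 and 0.879 times by share. In the same UMI range the CCR2 antibody was at 1.04 and 0.909, where day 3 turned direction. These RNA changes come from sums over cells and the antibody ratios from medians over cells, so the measures are unlike.

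**Figure D5:**
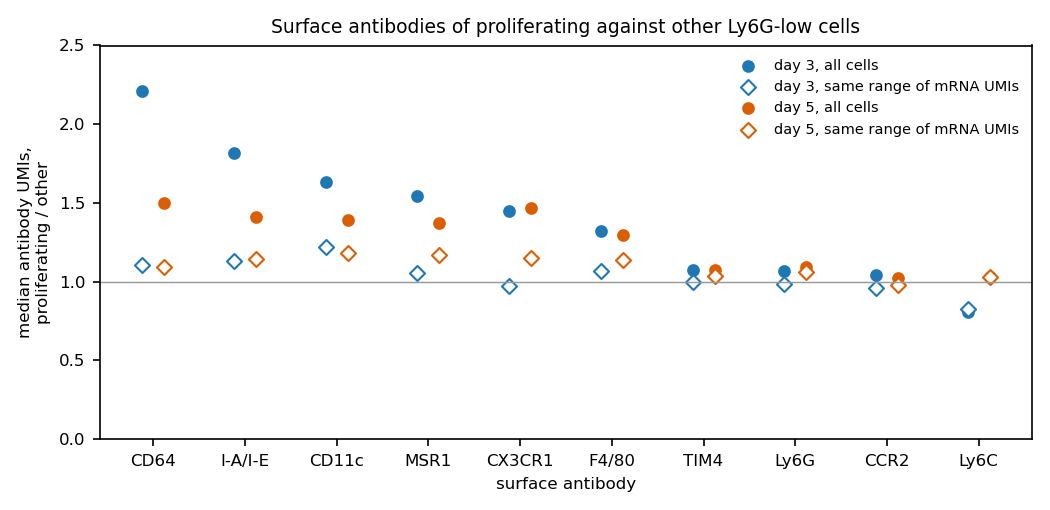
Ratio of the median antibody UMIs of proliferating to other Ly6G-low cells (y axis, starting at 0) for 10 surface antibodies (x axis) on days 3 and 5; filled circles are all cells and open diamonds are cells of the same range of RNA UMIs. CD64 was at 2.21 and 1.50 times in all cells and at 1.11 and 1.10 times in the same range.

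Between days 3 and 5 the proliferating cells differed most in Ctsk and Gpnmb, higher on day 5, and in AA467197 and Chil3, lower on day 5. This comparison has no test, with 1 hashtag set per day, and intervals are exact Poisson ones for counting error only. Of 1639 genes of at least 100 CPM 1.59% (26) differed by 2 times or more, 17 higher and 9 lower on day 5, against 2.64% (41 of 1554) in the other cells. Ctsk, a collagen-degrading protease, was at 28.2 CPM on day 3 and 156 on day 5 (log2 2.47, 2.28 to 2.67), against 4.68 in the other cells. Gpnmb, a glycoprotein of lipid-laden macrophages, was at 262 CPM on day 3 and 1013 on day 5 (log2 1.95, 1.89 to 2.02), against 1.02. Mgst1, a detoxifying enzyme, was at 29.3 CPM on day 3 and 102 on day 5 (log2 1.80, 1.61 to 2.00), against 0.15 in the others. In the proliferating cells of the CD45+ libraries Mgst1 changed little, from 54.8 CPM on day 3 (13 UMIs) to 65.2 on day 5 (47 UMIs). Pltp, a phospholipid transfer protein, and Ccl8, a chemokine, were higher on day 5 by 1.80 and 1.77 log2, against 1.56 and 1.13. The lowest were AA467197, at 211 CPM on day 3 and 53.2 on day 5 (log2 -1.99, -2.13 to -1.85) against -0.85, and Chil3, at 197 CPM on day 3 and 85.8 on day 5 (log2 -1.20, -1.32 to -1.08) against -1.71. Fn1, Ccl12 and Ccl6 were at -1.09, -1.11 and -1.07, against -0.35, -0.61 and -0.86. Ccl12 went the other way in the proliferating cells of the CD45+ libraries, from 278 CPM on day 3 (66 UMIs) to 1074 on day 5 (774 UMIs). The other genes named here moved there in the pool's direction.

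By list, 8 of 12 monocyte genes with enough UMIs were at least 2 times lower on day 5 in proliferating cells, with a median of -1.31 log2 against -1.76 in the other cells. Lipid-handling genes had a median of 0.46 against 0.27, and macrophage markers of 0.42 against 0.51. MHC class II genes went in opposite directions, with a median of -0.36 in proliferating and 0.32 in other cells. Of 6 dendritic cell markers 4 were at least 2 times lower on day 5 in proliferating cells, with a median of -2.15 against -0.08 in the others. Ccr7 had 179 UMIs on day 3 and 23 on day 5, and the part of such cells in the MHC class II values was not tested. Il1b was higher on day 5 in proliferating cells by 0.43 and lower in the others by 0.60. The replication genes had a median of -0.30, and the mitosis genes of -0.01.

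The same question was put to samples that the rule did not use, the CD45+ heart leukocytes of steady state and of days 1, 3, 5 and 7, which have no antibody counts. These mice were male C57BL6/J as well, 5 pooled per library and 3 for day 7, and a step that removed neutrophils came before the sort. Among cells of the messenger RNA macrophage gate, at least 3 UMIs of Mki67 and Top2a were found in 1.53% at steady state (8 of 524 cells, exact 95% interval 0.661 to 2.99) and 0.926% on day 1 (2 of 216, 0.112 to 3.30). The share was 1.29% on day 3 (9 of 696, 0.593 to 2.44), 4.85% on day 5 (38 of 783, 3.46 to 6.60) and 2.14% on day 7 (6 of 281, 0.787 to 4.59). Median depth was 7391 to 10642 UMIs, under that of the pool. With the pool's cells thinned to 5000 UMIs, its Ly6G-low shares were 6.85% on day 3 and 6.81% on day 5. The day 3 share of the CD45+ libraries lay below the pool's at that depth, and was not above their steady state share. Gate and sort differed between the experiments, and the cause of this gap was not tested. The day 5 interval lay wholly above those of days 1 and 3 and of steady state, although depth on day 5 was below that of day 3 (8459 against 10642 UMIs).

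Only the day 5 library reached the 10 cells needed for a sum, so cells with at least 2 UMIs were summed for days 3, 5 and 7 (15, 49 and 10 cells). Of 7701 genes 17.9% were called by edgeR with the library as block, 8.77% higher and 9.18% lower. Pclaf, Lockd and Cdca8 were highest outside the cycle lists, at 6.08, 4.97 and 4.90 log2, and Chil3, Cxcl3 and S100a9 lowest, at -2.96, -2.89 and -2.86. Genes of cell division come with the choice of the cells here too, so the highest values are a description. Lockd is a noncoding transcript beside Cdkn1b. Of 13 monocyte genes 12 fell, with a median of -2.34, the exception being S100a4 at 0.26. Neutrophil markers moved with them, with 8 of 9 lower and a median of -1.72. Nucleotide synthesis genes rose in 10 of 16, with a median of 1.19, and interferon genes fell in 11 of 16. Of 19 growth control genes 9 fell, with a median of -0.62, and Cdkn1a and Btg1 fell by 0.98 and 1.10. Other lists went differently from the pool. MHC class II genes had 0 of 7 past the threshold and a median of 0.23, 8 of 14 lipid-handling genes fell, and Igf1 and Gas6 fell by 1.28 and 1.12, where they had risen in the pool. The differences between the experiments were not tested. Without the day 5 library 414 genes were called, against 1382.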

How the data were processed

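The deposited files hold UMI counts per gene and barcode, and UMI counts per surface antibody and hashtag for the pool, made by the authors with Cell Ranger (3.0.2 per the file headers of the pools) on mm10, per the submitters' processing notes; the annotation release is not given in the sources used here. The other hashed pool, of blood and heart, has 7 hashtags without labels and entered no comparison. Hashtag calls, filters, classes and sums were computed from these counts with Python 3.11.15 and scipy 1.17.1. Sums of at least 10 cells were tested with edgeR 4.0.16 (quasi-likelihood, TMM, filterByExpr, Benjamini-Hochberg over all genes tested); DESeq2 1.42.0 was an alternative. In simulated counts with 200 changed genes of 1.5 log2 and a CV of 15%, 90.5% were recovered for the pool (3.21% false calls) and 72.5% for the CD45+ libraries (1.36%). The simulated counts had no day effect and fewer changed genes than the 3278 called in the pool, many of which changed by less than 1.5 log2. These rates therefore do not carry over to the real calls.

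Cells, gene lists and tests were chosen with earlier results of these data known. Named genes outside the lists are the 10 highest and 10 lowest log2 changes called in the same direction on both days, with at least 50 CPM in the higher class and no mitochondrial, ribosomal, globin, histone or unnamed genes (3 and 3 for the CD45+ libraries), and for the days the 5 highest and 5 lowest ratios at 100 CPM or more. Of each list the members highest in CPM were named (6 of the cycle lists, 4 of the others); other list members in the text were picked after their values were seen. Both classes of a day come from the same mice, so the day, or the library, was the block. Mice of a day were pooled, so p-values measure the spread between these sums. Alternatives changed the tool, scaling, filter, block, depth, UMI threshold, gate and hashtag limit.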

Additional observations from a re-analysis of the deposited data

Results flagged for a closer look

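Some cells outside the Ly6G-low population met the UMI threshold. Among cells with Ly6G antibody of 200 UMIs or more, 1.56% on day 1, 2.59% on day 3 and 6.87% on day 5 had at least 3 UMIs of Mki67 and Top2a. The 26 such cells of day 3 and the 20 of day 5 had summed neutrophil genes at medians of 2.59 and 2.39 UMIs per 10000, against 264 and 324 in the Ly6G-high cells with 0 UMIs. Their median depth was 46100 and 47819.5 UMIs. In the blood and heart pool, whose hashtags have no labels, 0.379% of cells of the messenger RNA gate (16 of 4219) met the threshold, with 0 to 5 cells per hashtag.

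Of the 4 haemoglobin genes tested, Hba-a1 and Hbb-bs went in opposite directions on the 2 days, and this difference was not tested. Hba-a2 was at 0.37 and 0.94 and Hbb-bt at 0.0062 and 0.18. Hba-a1 in proliferating against other cells was at -1.09 log2 on day 3 (3 and 13 UMIs) and 1.17 on day 5 (258 and 212 UMIs). Hbb-bs was at -0.36 on day 3 (20 and 47 UMIs) and 1.44 on day 5 (397 and 270 UMIs). Of 227 proliferating cells of day 5, 2 had at least 3 erythroid UMIs and 200 had none, with a highest value of 745 per 10000, so few cells carried the day 5 values. Hba-a1 and Hba-a2 are near-identical and may share reads.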

How the results depend on the processing

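The number of genes called in the pool (3278) was 1304 with DESeq2, 1612 with cells thinned to 5000 UMIs and 2035 with the messenger RNA gate and the same UMI range, the last chosen after seeing the data. With no replicate block, that is without the pairing of classes by day, it was 844, and for the CD45+ libraries (1382) it was 509. DESeq2 called 707 in the CD45+ libraries, and leaving out 1 library gave 414 (without day 5) to 1187. The share of proliferating cells on day 3 and day 5 was 18.8% and 22.8% at 2 UMIs, 11.7% and 11.1% at 5 UMIs, 10.7% and 10.9% with Ly6G antibody under 100, 6.85% and 6.81% thinned to 5000 UMIs, and 10.3% and 9.69% thinned to 10000 UMIs, the last chosen after seeing the data. Antibodies of higher median count on both days numbered 5 in the same UMI range, against 9 in all cells, with Ly6G among the 9. Of 128 named genes 62 kept their direction and side of the threshold under every alternative, and 6 changed sign. With pool and CD45+ libraries in one fit Gas6 was at -0.038, Igf1 at -0.11, Hba-a1 at -1.26, Hba-a2 at -1.18 and Hbb-bs at -0.64. Hbb-bs was also at -1.93 at 5 UMIs, -1.30 in the same UMI range and -1.39 with the gate and range. Without day 5 Hba-a1 was at -1.09 and Hbb-bs at -0.36. Spp1, which did not pass the test, was at -0.25 in the same UMI range and -0.24 with the gate and range. The cause of these shifts was not tested. Leaving out a hashtag of the pool left 1 day and no test, and Scrublet marked no cell, so neither gave a count. Cells with 3 UMIs in the CD45+ libraries were too few for a fit, which used 2 UMIs. Depth limits the shares most, since the 407 cells were chosen on raw UMIs and were deeper than the others.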
